A study of Homo sapiens with 18 samples.

Results

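The comparison set HT29 cells given OXA plus Curcumin against untreated HT29 cells. It used 6 of the 18 arrays, chosen by their labels: 3 biological replicates of the combined treatment and 3 of the untreated cells. HT29 is an established human colorectal adenocarcinoma cell line. The combined treatment was 10 µM OXA with 10 µM Curcumin for 24 h, and the labels call the control cells untreated. The labels also give 3 HT29 arrays after 10 µM OXA alone for 24 h, and 9 arrays of HTOXAR3, the subline of HT29 selected for OXA resistance, in which OXA was given at 30 µM. Cells given Curcumin alone were not analysed here. Against untreated cells the parts of the 2 drugs therefore cannot be told apart, and the values after OXA alone are given beside those of the combined treatment.

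OXA is a platinum drug that forms adducts and crosslinks on DNA. These lesions stall replication forks and RNA polymerases, and engage the ATR and ATM checkpoint kinases, the Fanconi anemia pathway, nucleotide excision repair and the p53 response. HT29 carries mutant p53. Curcumin is an electrophilic plant polyphenol that reacts with cysteine thiols, binds metals and is widely used as an inhibitor of NF-κB. Electrophiles release NRF2 from KEAP1, and unfolded or oxidised proteins release HSF1 from chaperones, so that antioxidant genes and heat shock genes are transcribed.

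RNA was measured on one-colour Agilent arrays, each with 58717 spots for transcripts, of which 58.0% to 60.7% were well above background in untreated cells and 59.3% to 63.6% after the combined treatment. A value is a normalized log2 intensity, so that a difference of 1 is a doubling. The lowest values lie near 6, where an offset added to each spot makes changes of dim genes look smaller than they were. Arrays of the same group correlated at 0.997 to 0.998, and arrays of the 2 groups at 0.988 to 0.990. Of 9 epithelial markers 8 were well above background on all 3 arrays of either group, among them *KRT18* with means of 18.33 and 18.46 and *EPCAM* with 16.39 and 16.50. Of the markers of other cell types, 1 of 6 for fibroblasts, 2 of 4 for endothelium and 5 of 6 for leukocytes were well above background on all 3 arrays of either group, and their summed linear intensities were 378 to 401, 475 to 537 and 2740 to 3013 in untreated cells against 409 to 488, 522 to 645 and 2271 to 2881 after the combined treatment. The epithelial list summed to 695924 to 725156 and 782287 to 835409. Untreated replicate 3 lay apart from replicates 1 and 2 for several genes, and its values are given for some of them. No array of the combined treatment shared the slide of untreated replicate 1.

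A gene name was called changed at a limma adjusted p (Benjamini-Yekutieli) below 0.05 and a fold change above 1.2. After the combined treatment 7175 of 36203 names were called, or 19.8%. Of these 3664 were higher (10.1%) and 3511 lower (9.7%), and the median size of a called change was 0.52 on the log2 scale. Past 2-fold there were 498 higher (1.38%) and 343 lower (0.947%). Among the 20561 names well above background on all 3 arrays of 1 of the groups, 17.8% were called higher and 17% lower, and these shares are the background for the gene lists below. The 3 arrays of each group did not overlap for 38.8% of all names. The number of calls was 7152 with the slide as a block, but 1882 within slide 2 and 1392 within slide 3, where the model had 2 residual degrees of freedom. Slide 2 holds 1 untreated and 2 combined-treatment arrays of HT29, and slide 3 holds 1 of each, so that a lone array is assumed to vary like the groups with more than 1 array on the slide. OXA alone gave 6239 calls against the same untreated arrays (17.2%), 8.94% higher and 8.3% lower, and the combined treatment differed from OXA alone at 2570 names (7.1%), of which 3.88% were higher and 3.22% lower. This last count fell to 558 with only the 6 arrays compared, and to 65 within slide 2 and 65 within slide 3. Comparisons that share the untreated arrays or the arrays of the combined treatment are not independent, and their values are set side by side only.

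The largest rise was that of *HSPA6*, an HSP70 chaperone that is silent in most unstressed cells. Its values were 6.85, 6.94 and 7.01 on the untreated arrays, 12.32, 12.43 and 11.90 after the combined treatment, and 6.66, 6.67 and 6.54 after OXA alone. The rise was 5.28 on the log2 scale (SE 0.13, 38.9-fold, adjusted p = 1.88e-12), and no array of the combined treatment came near those of the other groups. The probe lies at chr1:161496158-161496217 on GRCh37. A second probe for the gene rose by 2.45, and the mean of both by 3.87.

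Among the other large rises *SDCBP2*, which encodes the PDZ protein syntenin-2, read 8.32, 8.10 and 8.06 in untreated cells and 12.19, 11.96 and 11.73 after the combined treatment, against 8.76, 8.64 and 8.59 after OXA alone. *GPX3*, a secreted glutathione peroxidase, rose from 9.05, 9.06 and 9.10 to 12.59, 12.41 and 12.30, and read 10.12, 10.02 and 9.96 after OXA alone. The rise was 3.80 for *SDCBP2* (adjusted p = 7.73e-12) and 3.36 for *GPX3* (adjusted p = 6.83e-13), and for both genes the groups were separate, with the combined treatment highest. OXA alone had raised them by 0.50 and 0.96. The stress-inducible *GADD45B* read 9.23, 9.35 and 9.45 untreated, 11.08, 11.16 and 11.12 after OXA alone and 12.49, 12.70 and 12.69 after the combined treatment.

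For 5 other large rises OXA alone had raised the gene by a similar amount. *PDE6G*, an inhibitory subunit of the photoreceptor phosphodiesterase, read 7.28, 7.30 and 7.26 untreated, 11.94, 12.07 and 12 after OXA alone and 11.84, 11.81 and 11.69 after the combined treatment. Its rise was 4.50 (SE 0.07, adjusted p = 1.28e-14), and the combined treatment did not pass the test against OXA alone (−0.22, adjusted p = 0.378). *ADSS1*, an enzyme of AMP synthesis, rose by 3.89, *SPON2*, a matrix protein, by 3.79, and the near-identical palmitoyltransferase genes *ZDHHC11* and *ZDHHC11B*, whose probes may share target, by 3.54 and 3.49. These 4 genes had risen by 3.64, 4.12, 4.08 and 3.94 after OXA alone, and of them *ZDHHC11* was called lower after the combined treatment than after OXA alone (−0.54, adjusted p = 0.0492). A second *SPON2* probe did not stand above background on any of the 6 arrays, and the 5 *ZDHHC11* probes rose by 0.87 to 3.54. The *ZDHHC11* probe at 0.87 was not well above background on any untreated array, so that its rise has only a bound.

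The largest falls of protein-coding genes included those of *SLC19A1*, *ANTKMT* and *PIGQ*. *SLC19A1*, the reduced folate carrier, read 11.05, 11.08 and 11.10 against 7.79, 7.76 and 8.33, and went lower still after OXA alone, to 6.90, 6.93 and 7.08. Its change was −3.12 (SE 0.11, adjusted p = 1.17e-10), and the arrays of the 3 groups did not overlap, while a second probe fell by 1.88. *ANTKMT*, a mitochondrial lysine methyltransferase, fell by 3.1 and *PIGQ*, of GPI anchor synthesis, by 3.08, after changes of −3.71 and −3.96 with OXA alone. The other *PIGQ* probes fell by 1.5 and 2.08. After the combined treatment the probe at 1.5 had a mean of 6.13 and stood well above background on 0 of 3 arrays. The fall on that probe therefore has only a bound. The 18S ribosomal RNA name *RNA18SN5* read 18.22, 18.44 and 16.63 untreated and 14.62, 14.15 and 14.02 after the combined treatment, with untreated replicate 3 well below the other two.

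**Figure D1:**
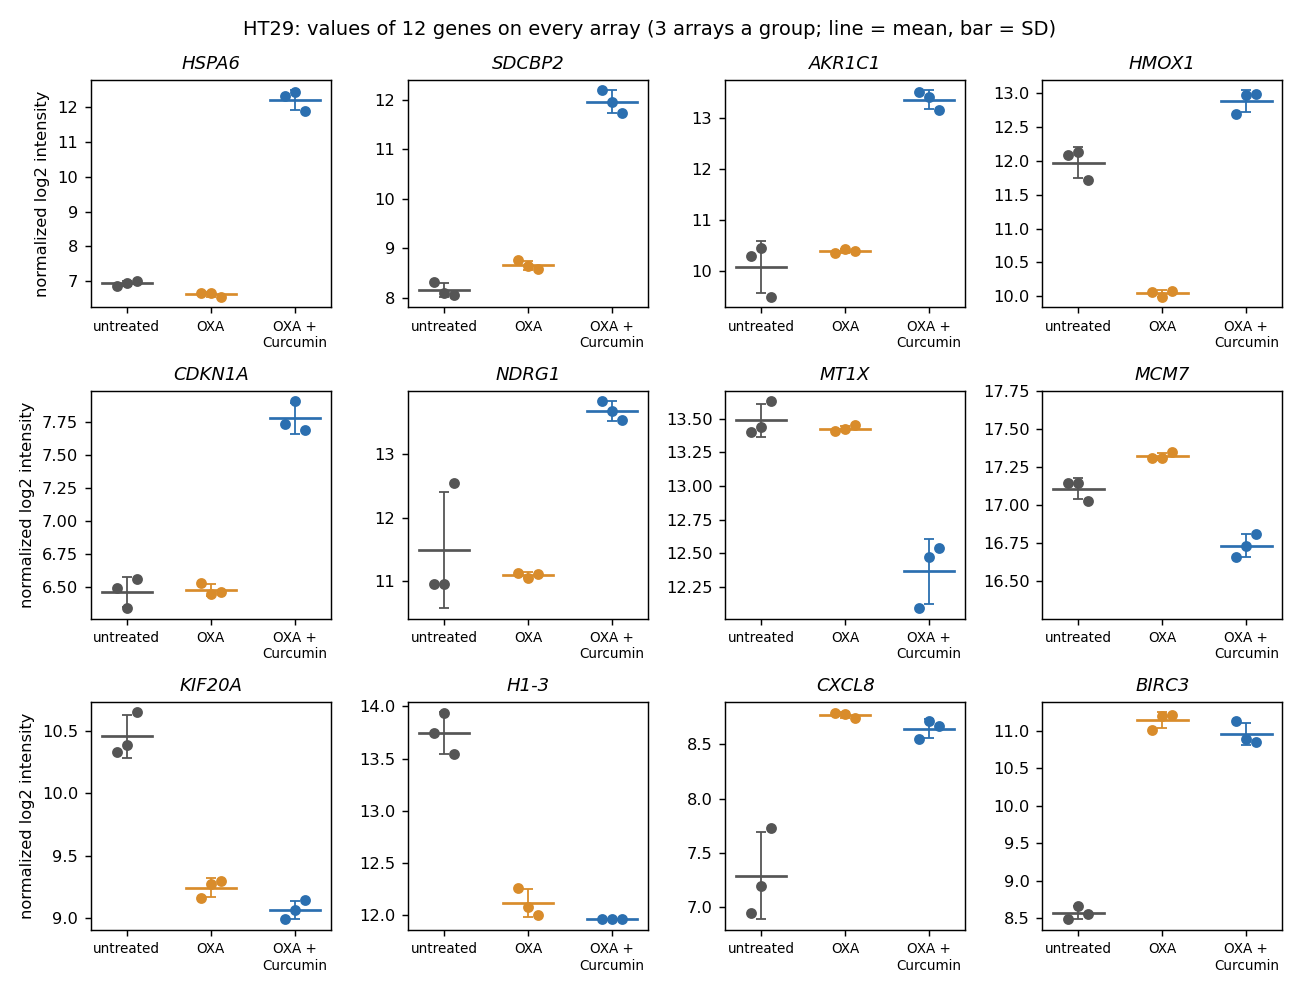
Normalized log2 intensity (vertical axis) of 12 genes on the 3 untreated, 3 OXA and 3 OXA plus Curcumin arrays of HT29. Points are arrays, lines are group means and bars are SD. *HSPA6*, *SDCBP2*, *AKR1C1*, *CDKN1A* and *NDRG1* were highest after the combined treatment, *MT1X* was lowest there, while *BIRC3* and *CXCL8* were as high after OXA alone. Each panel has its own axis range.

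The heat shock list holds HSP70, HSP40, HSP90 and small heat shock proteins, their co-chaperones and the HSF factors. Of its 31 genes 9 were called higher and 6 lower, with a median change of 0.17 against −0.01 over all names. Beside *HSPA6* the members that rose were *DNAJB2* (1.13, and 0.62 on a second probe), the HSP70 co-chaperone *BAG3* (1.01), *DNAJB4* (0.87), *HSPB1* (0.48), *HSPA1A* (0.47), *HSPA1B* (0.37), *DNAJB6* (0.28) and *DNAJB1* (0.27). *HSPA1A* and *HSPA1B* are almost identical, and their probes may measure both. *HSPA1A* read 13.45, 13.44 and 13.60 untreated and 13.85, 14.09 and 13.95 after the combined treatment, but 12.72, 12.62 and 12.68 after OXA alone, so that the 3 groups were separate, lowest after OXA alone and highest after the combined treatment. *BAG3* changed by −0.28 after OXA alone, which was not called, and was 1.29 higher after the combined treatment than after OXA.

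Among the 6 members called lower were *HSPA8*, *HSPD1*, *HSPE1* and *HSPA4L*. *HSPA8*, the main HSP70 of unstressed cells, read 15.64, 15.50 and 15.60 against 14.91, 15.11 and 14.95, a change of −0.59 (adjusted p = 4.15e-05). The mitochondrial chaperonins *HSPD1* and *HSPE1* fell by 0.45 and 0.51, and *HSPA4L* by 0.87. *HSP90AA1* (−0.18) and *HSP90AB1* (−0.19) were not called. Against OXA alone 9 members were higher and 0 lower. Within slide 2 and within slide 3, 4 and 3 members were called higher and 1 lower on each. The call of *DNAJB1* rested on a small difference and was lost with only the 6 arrays compared (adjusted p = 0.0544).

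The heat shock element, spelled GAA, any 2 bases, TTC, any 2 bases and GAA, was found on either strand of the promoter windows of 9 of 27 list genes (33.3%), against 0.608% of all 27305 genes with a window. A window runs from 250 bases before to 50 after the start of the gene in RefSeq on GRCh38.p14. This list and those below were written from general knowledge of the pathways. The share of list genes with a site, here and below, is therefore not a result of these data. Of the 9 genes 2 were called higher, 3 lower and 4 not called. The stretches of the gene with the largest rise and of 3 genes that did not rise are printed here, from the windows, with the element in capitals.
HSPA6 (chr1:161524446-161524498, plus strand): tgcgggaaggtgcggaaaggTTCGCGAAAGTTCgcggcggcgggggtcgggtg
HSP90AA1 (chr14:102087100-102087152, minus strand): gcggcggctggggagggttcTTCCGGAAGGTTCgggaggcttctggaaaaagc
HSPD1 (chr2:197500048-197500090, minus strand): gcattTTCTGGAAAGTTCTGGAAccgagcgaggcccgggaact
HSPA8 (chr11:123062159-123062291, minus strand): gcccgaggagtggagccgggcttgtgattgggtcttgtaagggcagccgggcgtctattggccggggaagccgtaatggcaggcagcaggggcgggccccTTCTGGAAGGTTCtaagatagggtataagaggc
The element of *HSPA6* lies nearest to the start at 62 bases before it, that of *HSPA8* at 43, that of *HSP90AA1* at 76 and that of *HSPD1* at 228. All 4 windows hold the pattern, with different letters at its free bases and 2 overlapping matches in *HSPD1*, and the genes changed by 5.28, −0.59, −0.18 and −0.45 in that order.

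Targets of NRF2, the factor that transcribes antioxidant and detoxifying enzymes, were called higher for 14 of the 31 genes measured and lower for 0, with a median of 0.29. *AKR1C1*, an aldo-keto reductase, read 10.28, 10.45 and 9.48 untreated, 13.52, 13.42 and 13.16 after the combined treatment and 10.35, 10.42 and 10.39 after OXA alone. Its rise was 3.29 (SE 0.17, adjusted p = 5.77e-09), with untreated replicate 3 the lowest array. A second probe rose by 2.35 and the last was not called (0.40, adjusted p = 0.0637), and the probes may also detect the close relatives *AKR1C2* and *AKR1C3*. *OSGIN1*, an oxidative stress response gene, read 8.62, 8.52 and 8.24 against 10.61, 10.62 and 10.40, a rise of 2.08.

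The list also holds genes of iron and heme. *HMOX1*, which encodes heme oxygenase 1, read 12.08, 12.12 and 11.71 in untreated cells and 12.69, 12.96 and 12.98 after the combined treatment. After OXA alone it read 10.07, 9.99 and 10.08. It was thus 0.91 above untreated (adjusted p = 3.57e-05) and 2.83 above OXA alone (adjusted p = 1.06e-09), with no overlap of the 3 groups. *BLVRB*, which reduces the biliverdin that heme oxygenase makes, rose by 1.5, and the ferritin light chain *FTL* by 1.27, whereas the heavy chain *FTH1* was not called (0.22).

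Of the thioredoxin and glutathione genes *TXNRD1* rose by 0.85, *SRXN1* by 0.73, *GSR* by 0.62 and *TXN* by 0.44. *NQO1*, the quinone reductase often used as a readout of NRF2, read 10.49, 10.57 and 10.55 untreated and 10.38, 10.39 and 10.41 after the combined treatment, a difference of −0.14 that was not called (adjusted p = 0.653). After OXA alone *NQO1* was lower, at 9.71, 9.84 and 9.94. The cystine carrier *SLC7A11* (0.28) and the glutamate-cysteine ligase subunits *GCLM* (0.50) and *GCLC* (−0.16) were not called against untreated. OXA alone lowered 9 members and raised 1, and against OXA alone the combined treatment was higher at 21 members and lower at 0. Within slide 2 and slide 3, 6 and 9 members were called higher than untreated.

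The antioxidant element TGACNNNGC was found in the windows of 8 of 25 list genes (32%), against 16.1% of all genes. Of the 8 genes 4 were called higher and 4 not called. One gene of each kind is printed with the element in capitals, *TXNRD1*, which rose, and *GCLM*, which was not called.
TXNRD1 (chr12:104215660-104215708, plus strand): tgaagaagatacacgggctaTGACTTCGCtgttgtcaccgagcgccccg
GCLM (chr1:93909436-93909484, minus strand): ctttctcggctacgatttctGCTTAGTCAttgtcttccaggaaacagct
The element lies 91 bases before the start of *TXNRD1* and 26 before that of *GCLM*, on opposite strands.

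Genes of the proteasome, the protease that degrades ubiquitin-tagged proteins, were called higher for 25 of 31 subunits and lower for 1, with a median of 0.48 and a range from −0.43 to 1.01. They included catalytic subunits of the core (*PSMB2*, 0.87, and *PSMB5*, 0.41), alpha ring subunits (*PSMA6*, 0.55) and ATPases and lid subunits of the cap (*PSMC4*, 1.01, and *PSMD12*, 0.65). *PSMC4* read 13.01, 13.05 and 13.02 untreated and 14.18, 13.99 and 13.94 after the combined treatment, against 13.17, 13.17 and 13.16 after OXA alone. *PSMB5*, the subunit with chymotrypsin-like activity, read 14.62, 14.52 and 14.44 against 14.89, 15.02 and 14.91. The lid subunit *PSMD7* was the exception, with 14.59, 14.55 and 14.62 against 14.14, 14.18 and 14.14. OXA alone raised 5 subunits and lowered 2, and 22 subunits were higher after the combined treatment than after OXA alone, with 0 lower. Within slide 2 and within slide 3 the median of the list was 0.50 and 0.43. Single subunits cannot be judged there, since a group had as few as 1 array. *PSMB2* was not called when the mean of its 3 probes was used (0.59, adjusted p = 0.0784).

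The ATF4 and unfolded protein response list was divided, with 12 of 29 genes called higher and 9 lower (median 0.01). *DDIT3*, the CHOP transcription factor, rose from 8.21, 8.20 and 8.17 to 10.59, 10.73 and 10.60, a rise of 2.45 (adjusted p = 7.21e-13), and read 9.69, 9.60 and 9.67 after OXA alone. *ATF3*, a stress-induced repressor, rose by 1.59, while another of its probes was not called (0.32, adjusted p = 0.22), and *PPP1R15A*, which brings about dephosphorylation of eIF2α, by 1.49. *DNAJB9* and *DNAJC3*, both co-chaperones of the endoplasmic reticulum, rose by 1.25 and 0.64. The groups of arrays were separate for *DDIT3*, lowest in untreated cells and highest after the combined treatment.

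The 9 members that fell were led by *HSPA5*, which encodes BiP, read 11.72, 11.75 and 11.56 untreated, 10.19, 10.37 and 10.33 after the combined treatment, and 9.52, 9.74 and 9.55 after OXA alone. It was thus 1.38 below untreated (adjusted p = 7.66e-09) and 0.69 above OXA alone (adjusted p = 8.25e-05). The amino acid transporter *SLC7A5* fell by 1.16, the serine synthesis enzymes *PHGDH* and *PSAT1* by 0.93 and 0.91, and asparagine synthetase *ASNS* by 0.53. The other 4 were *EDEM1* (−0.66), *SDF2L1* (−0.63), the transcription factor *XBP1* (−0.58) and the disulfide isomerase *PDIA4* (−0.32). The transporter subunit *SLC3A2*, which pairs with *SLC7A5*, rose by 0.79. OXA alone lowered 19 members and raised 6, with a median of −0.57, and the combined treatment was higher than OXA alone at 16 members and lower at 0. *DDIT4* was one of those, at −1.23 after OXA alone and 0.45 after the combined treatment, the latter not called. The ATF4 site TGATGNAA was found in the windows of 5 of 28 list genes (17.9%), against 4.46% of all genes. Of these 5, *ATF3*, *CHAC1*, *HERPUD1* and *SLC3A2* rose and *ASNS* fell.

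Metallothioneins, small proteins that bind zinc and copper through cysteines and are transcribed by the metal sensor MTF1, make up most of a list of 11 genes, of which 7 were called lower and 1 higher, with a median of −0.97. *MT2A* read 15.25, 15.24 and 15.62 untreated, 14.13, 14.48 and 14.61 after the combined treatment and 15.45, 15.39 and 15.36 after OXA alone. *MT1X* read 13.40, 13.44 and 13.63, then 12.09, 12.47 and 12.54, against 13.41, 13.42 and 13.45 after OXA alone. Both genes were lower on each array of the combined treatment than on any array of the other 2 groups, by 0.97 and 1.12 against untreated (adjusted p = 3.35e-05 and 7.89e-07). *MT1G* fell by 1.31 and *MT1M* by 1.27. Against OXA alone 8 members were lower and 0 higher, while OXA alone lowered 1 member and raised 1.

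*SLC30A1*, a zinc exporter with metal response elements of its own, did not follow the metallothioneins. It read 10.64, 10.67 and 10.52 untreated and 11.32, 11.36 and 11.22 after the combined treatment, a rise of 0.69, and it was at 11.14, 11.21 and 11.22 after OXA alone. *MTF1* itself was not called (−0.20). The MT1 genes are near-identical copies, so that their probes may not be independent measurements. Of the list genes 2 and 7 were called lower within slide 2 and slide 3. The metal response element, TGCGCNC or TGCACNC, was found in the windows of 5 of 6 list genes with a window (83.3%), against 33.4% of all genes. The stretches of *MT1X* and *MT2A* are printed because both genes fell while holding several copies, which are in capitals on either strand.
MT1X (chr16:56682317-56682443, plus strand): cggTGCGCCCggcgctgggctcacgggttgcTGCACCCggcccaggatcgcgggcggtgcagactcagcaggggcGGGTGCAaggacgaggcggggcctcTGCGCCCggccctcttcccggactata
MT2A (chr16:56608476-56608583, plus strand): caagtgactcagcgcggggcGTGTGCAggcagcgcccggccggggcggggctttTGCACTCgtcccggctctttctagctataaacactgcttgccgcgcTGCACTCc
*MT1X* holds 4 matches in this stretch and *MT2A* 3.

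**Figure D2:**
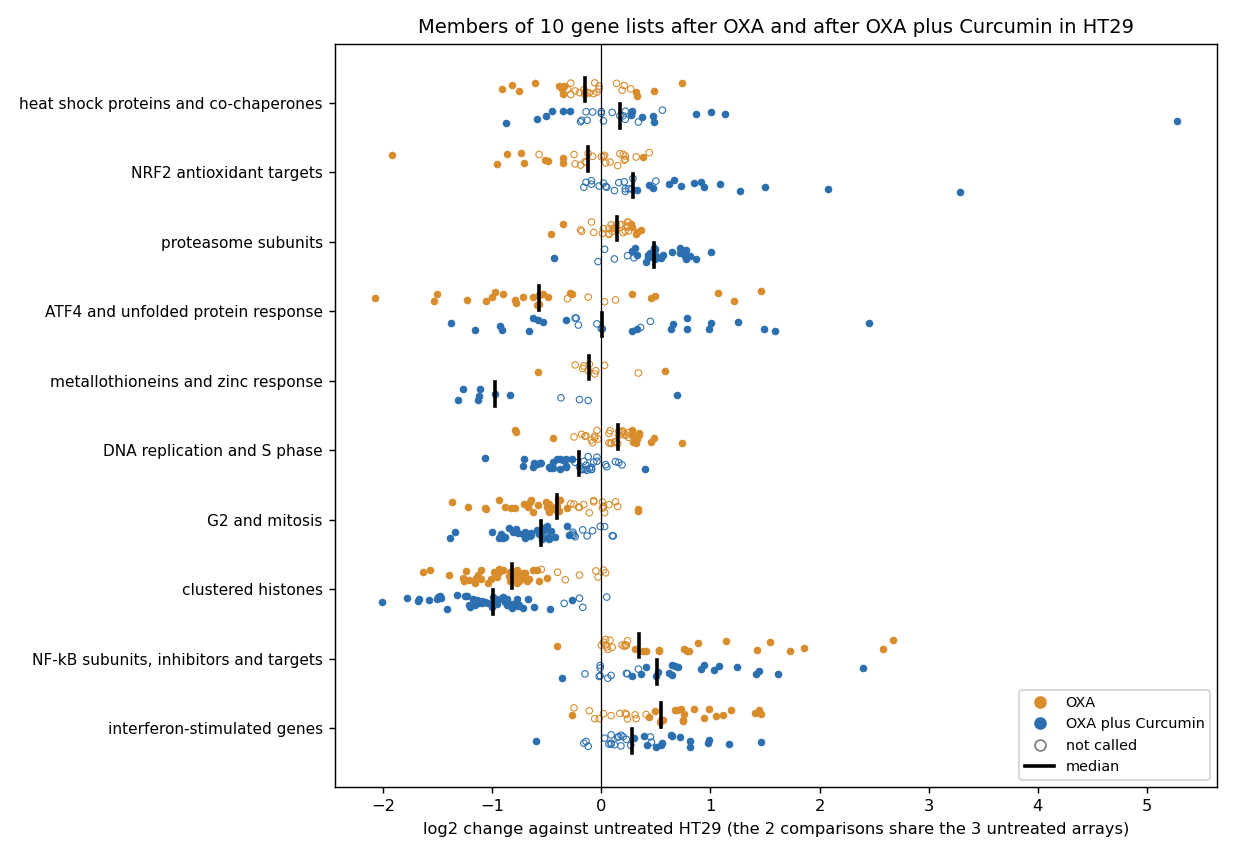
Log2 change against untreated HT29 (horizontal axis) of each member of 10 gene lists after OXA (orange) and after OXA plus Curcumin (blue). Filled points were called, open points were not, and black lines are medians. The median of the proteasome list was 0.14 after OXA and 0.48 after the combined treatment, and that of the metallothioneins −0.11 and −0.97.

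Genes of the DNA damage response were called in both directions, as were all detected names. Of 27 p53 targets 8 were called higher and 5 lower (median −0.01), 5 and 6 with only the 6 arrays compared, among 17.8% and 17% of detected names. *CDKN1A*, the p21 inhibitor of cyclin-dependent kinases, read 6.49, 6.34 and 6.56 untreated, 6.53, 6.45 and 6.46 after OXA alone and 7.74, 7.91 and 7.69 after the combined treatment. It rose by 1.31 (adjusted p = 2.59e-08), and only the arrays of the combined treatment stood above the others. *MDM2*, the p53 ubiquitin ligase, was not called (−0.24, adjusted p = 1.00), although the mean of its 4 probes was (−0.38, adjusted p = 9.56e-05). *TP53I3* rose by 0.80, while *CCNG1* fell by 0.75 and the apoptosis genes *BBC3* and *BAX* by 0.68 and 0.60.

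Of 18 checkpoint genes 2 were higher and 6 lower, against 0 and 1 within slide 2 and 1 and 0 within slide 3. The kinase gene *ATR* read 11.89, 11.92 and 11.96 against 11.46, 11.45 and 11.38, a change of −0.49, and *ATM* fell by 0.43. The histone variant gene *H2AX* fell by 0.85. The checkpoint kinase gene *CHEK1* was not called (−0.19, adjusted p = 0.136), and the clamp subunit *RAD9A* rose by 0.77.

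Of 29 Fanconi anemia and homologous recombination genes 3 were higher (10.3%) and 6 lower (20.7%), with a median of −0.07. Among all detected names the shares were 17.8% and 17%. *BRCA1* read 11.26, 11.27 and 11.25 untreated, 11.57, 11.59 and 11.57 after OXA alone and 11.20, 11.24 and 11.23 after the combined treatment, so that OXA alone stood above both. *FANCD2* read 10.10, 10.06 and 10.19 untreated, 10.96, 10.68 and 10.51 after OXA alone and 10.43, 10.47 and 10.48 after the combined treatment, which was called against neither, although it was against untreated with only the 6 arrays compared (adjusted p = 0.0282). OXA alone raised 6 members of the list and lowered 0, and against OXA alone the combined treatment was lower at 9 and higher at 0. Of 21 nucleotide excision repair genes 4 were higher (19%) and 2 lower (9.52%), shares near or below those of all detected names. *ERCC1*, whose product cuts beside platinum lesions, rose from 12.08, 12.22 and 12.15 to 13.18, 13.20 and 13.25 (1.06, adjusted p = 3.07e-09), as it did after OXA alone (1.15), and *XPA* was not called (−0.07).

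Of 43 genes of DNA replication 19 were called lower and 1 higher than untreated (median −0.20), and 12 and 1 with only the 6 arrays compared. OXA alone had raised 10 and lowered 3 (median 0.15), and the combined treatment was lower than OXA alone at 31 and higher at 0 (median −0.38). Counts of list members against OXA alone, here and for the other lists, were not repeated with only the 6 arrays compared. In that smaller model the calls over all names fell from 2570 to 558, and the lower calls from 1164 to 148. *MCM2*, a subunit of the replicative helicase, read 14.03, 14.03 and 14.06 untreated, 14.31, 14.40 and 14.47 after OXA alone and 13.95, 14.01 and 13.91 after the combined treatment, which was not called against untreated (−0.09) but was against OXA alone (−0.44). The helicase subunit *MCM6* read 13.20, 13.31 and 13.25 untreated and 12.16, 12.18 and 12.23 after the combined treatment, a change of −1.07 that was largely present after OXA alone (−0.78). *CCNE2*, the cyclin of S phase entry, fell by 0.62, *PCNA* by 0.48 and the polymerase gene *POLA1* by 0.47, and *POLD1* was the member that rose (0.40). The calls lower were 2 within slide 2 and 1 within slide 3. The E2F site TTTCCCGC was found in the windows of 9 of 37 members (24.3%), against 1.98% of all genes, and 7 of these 9 were called lower.

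Of 46 genes of G2 and mitosis 35 were called lower and 0 higher, with a median of −0.55, and OXA alone had lowered 27 and raised 2. *CCNB1*, the cyclin of mitotic entry, read 14.09, 14.14 and 14.13 untreated, 13.24, 13.43 and 13.39 after the combined treatment and 13.19, 13.31 and 13.36 after OXA alone. *KIF20A*, a kinesin of cytokinesis, fell from 10.33, 10.39 and 10.65 to 8.99, 9.06 and 9.14 (−1.39, adjusted p = 9.61e-09), and *CENPE*, a kinetochore kinesin, fell by 1.34. *BIRC5*, which encodes Survivin of the chromosomal passenger complex, read 15.30, 15.34 and 15.33 against 14.71, 14.76 and 14.75, a change of −0.59. In RNA from whole cultures, fewer cells in a phase and less RNA per cell cannot be told apart. *FOXM1* (0.03) and *CDC25B* (0.11) were among the 11 members not called, and the combined treatment was lower than OXA alone at 9 members. On slide 2 and on slide 3 alone, 9 members were called lower.

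The CHR element TTTGAA and the CCAAT box were found in the windows of 29 and 33 of 39 members (74.4% and 84.6%), against 18.2% and 39.7% of all genes. Of the members with a CHR element 23 were called lower and 6 not called, and of all 46 members 35 were lower and 11 not called. The stretch of *CCNB2*, which fell by 0.46, shows 3 CCAAT boxes and the CHR element in capitals, and that of *CCNB1* 2 CCAAT boxes.
CCNB2 (chr15:59105017-59105142, plus strand): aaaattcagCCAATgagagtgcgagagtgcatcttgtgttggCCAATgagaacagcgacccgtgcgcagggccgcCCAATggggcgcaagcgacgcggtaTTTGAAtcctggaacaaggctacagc
CCNB1 (chr5:69167043-69167119, plus strand): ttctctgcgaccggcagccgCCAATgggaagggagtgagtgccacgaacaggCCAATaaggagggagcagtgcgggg

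Of 16 genes of G1 cyclins and their inhibitors 4 were higher and 1 lower. Beside *CDKN1A* the inhibitors *CDKN1C* (0.80) and *CDKN2B* (0.52) rose, the latter not called with only the 6 arrays compared (adjusted p = 0.105). *CCND1* read 10.22, 10.27 and 10.25 untreated, 10.53, 10.65 and 10.59 after OXA alone and 10.33, 10.25 and 10.15 after the combined treatment, so that its level in the combined treatment overlapped with that of untreated cells.

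The clustered histone genes, transcribed in S phase, showed the most one-sided counts. Of 52 genes measured 48 were called lower and 0 higher, with a median of −1 and a range from −2.01 to 0.05. *H1-3* read 13.75, 13.94 and 13.54 untreated, 11.96 on all 3 arrays of the combined treatment and 12.26, 12.08 and 12 after OXA alone. *H2AC16* fell by 2.01 and *H1-2* by 0.88. OXA alone lowered 44 of the genes, and the combined treatment differed from OXA alone at 0 by the limma test with Benjamini-Yekutieli adjustment, with a median difference of −0.23. At an unadjusted p below 0.05, 25 were lower and 0 higher. Histone genes of 1 class are near-identical, so that their probes may measure several genes.

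Ribosome biogenesis and RNA polymerase I genes were called lower for 29 of 42 members and higher for 0, with a median of −0.42. *BOP1*, a factor of 60S maturation, read 13.56, 13.58 and 13.40 untreated, 10.92, 10.83 and 11.07 after the combined treatment and 10.14, 10.16 and 10.04 after OXA alone. It fell by 2.57 against untreated (adjusted p = 2.92e-12) and was 0.83 higher than after OXA alone. *UBTF*, a factor at ribosomal DNA promoters, fell by 1.05, and the box C/D protein gene *NOP56* read 15.87, 15.86 and 15.71 against 15.23, 15.21 and 15.17, with a second probe at −0.29 (adjusted p = 0.0203). The polymerase subunit *POLR1B* was not called (−0.24, adjusted p = 0.167), but its second probe was (−0.37, adjusted p = 0.000662). *MYC*, which drives many of these genes, fell by 0.59 on 1 probe, and its other probe did not stand above background on any of the 6 arrays. The E box CACGTG was found in the windows of 14 of 36 members (38.9%), against 8.77% of all genes, and 11 of the 14 were called lower. Within slide 2 and slide 3, 5 and 3 members passed.

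**Figure D3:**
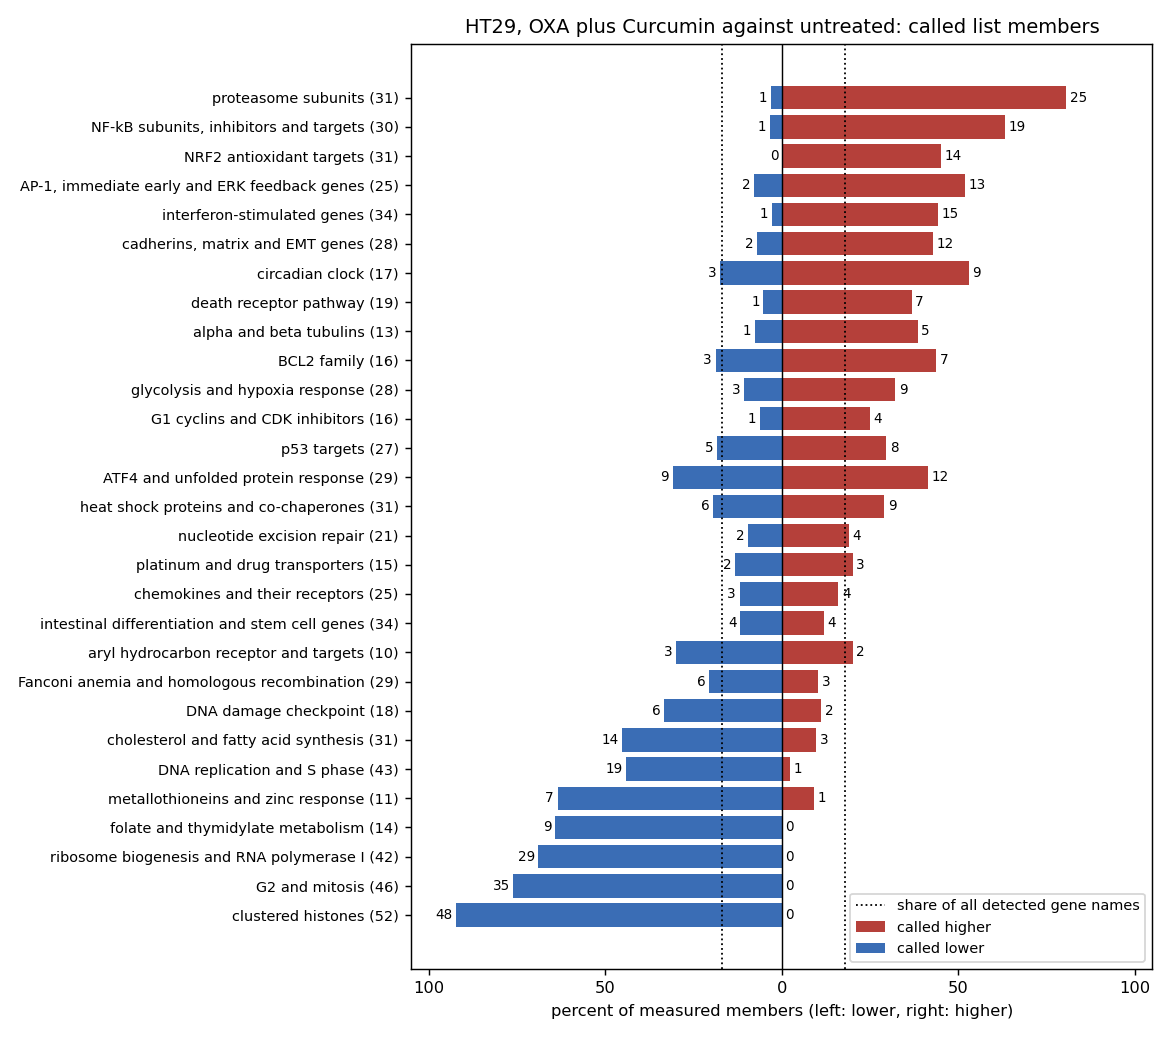
Percent of the measured genes of 29 lists called higher (right) and lower (left) after OXA plus Curcumin against untreated HT29, with the number of genes at each bar. Dotted lines are the shares of all detected names, 17.8% and 17%. Clustered histones, with 48 of 52 lower, and proteasome subunits, with 25 of 31 higher, lie at the ends.

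The study asked what Curcumin does to NF-κB, a family of dimers held in the cytoplasm by IκB proteins and released when these are degraded. Of 30 subunits, inhibitors and targets 19 were called higher than untreated and 1 lower, with a median of 0.51. *BIRC3*, an inhibitor of apoptosis, read 8.49, 8.66 and 8.55 untreated, 11.13, 10.89 and 10.86 after the combined treatment and 11.02, 11.20 and 11.21 after OXA alone. It rose by 2.40 (SE 0.08, adjusted p = 3.44e-11), and its difference from OXA alone was not called (−0.18, adjusted p = 1.00). The adhesion gene *ICAM1* rose by 1.62, and the subunits *RELB* and *NFKB2* by 1.42 and 1.24, whereas *NFKB1* (−0.02) and *REL* (−0.01) were not called.

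The inhibitor *NFKBIA* read 13.21, 13.33 and 13.62 untreated, 13.84, 13.88 and 14 after the combined treatment and 13.85, 13.73 and 13.80 after OXA alone. Its rise was 0.52 (adjusted p = 0.000694) and was not called with only the 6 arrays compared (adjusted p = 0.108), untreated replicate 3 being the highest untreated array. *TNFAIP3*, a deubiquitinase that feeds back on the pathway, rose by 0.70 and likewise missed the threshold in the smaller model (adjusted p = 0.0503). *XIAP* was the member that fell, by 0.36, which the mean of its 2 probes did not show (−0.17, adjusted p = 0.308).

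OXA alone raised 16 members and lowered 1. The direct comparison of the combined treatment with OXA alone called 2 members higher and 3 lower. *PLAU*, the urokinase gene, read 2.67 above untreated after OXA alone and 1.45 after the combined treatment, a difference of −1.22 that was called. The cytokine gene *LTB* differed by −0.83 and *NFKB1* by −0.33. *SOD2*, the mitochondrial superoxide dismutase, went the other way, with 0.10 after OXA alone and 0.91 after the combined treatment, and *IER3* differed by 0.27.

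Of the 25 chemokines and receptors on the list 15 were well above background, 4 were called higher and 3 lower. *CXCL1* read 10.53, 10.51 and 11.06 untreated, 12.08, 12.14 and 12.42 after the combined treatment and 12.41, 12.33 and 12.30 after OXA alone. *CXCL8* read 6.94, 7.19 and 7.73 untreated, 8.55, 8.72 and 8.67 after the combined treatment and 8.79, 8.78 and 8.74 after OXA alone. *CXCL2* read 10.21, 10.35 and 10.67, then 11.09, 11.48 and 11.37 after the combined treatment and 10.93, 11.04 and 10.87 after OXA alone. All 3 encode neutrophil-attracting ligands of CXCR1 and CXCR2, and for each the untreated arrays lay below all treated ones, with untreated replicate 3 the highest of them. The rises were 1.51 for *CXCL1* (adjusted p = 8.21e-07), 1.36 for *CXCL8* (adjusted p = 1.70e-05), 0.90 for *CXCL2* (adjusted p = 0.000136) and 1.18 for *CXCL3*.

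No member of this trio passed the test between the combined treatment and OXA alone, with differences of −0.13, −0.12 and 0.36 for *CXCL1*, *CXCL8* and *CXCL2*. Their receptors *CXCR1* (0.03) and *CXCR2* (−0.03) were not called, and the latter was not well above background in either group. *CXCR4*, the receptor of CXCL12, fell by 0.93 (adjusted p = 0.00198), a call lost with only the 6 arrays compared (adjusted p = 0.159) and with only the 9 HT29 arrays (adjusted p = 0.0695). On slide 2 and slide 3, 3 and 2 chemokine genes were called higher.

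The κB site GGNNNTTCC was found in the windows of 17 of 25 NF-κB list genes (68%) and of 11 of 20 chemokine and receptor genes (55%), against 23.5% of all genes. Of the 17 genes 10 were called higher, 1 lower and 6 not called, and of all 30 genes of the NF-κB list 19 were higher and 1 lower. The sites of the 3 chemokines, which the study singled out, and of the inhibitor *NFKBIA* are printed in capitals.
CXCL8 (chr4:73740458-73740506, plus strand): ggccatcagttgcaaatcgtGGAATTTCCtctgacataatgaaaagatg
CXCL1 (chr4:73869295-73869368, plus strand): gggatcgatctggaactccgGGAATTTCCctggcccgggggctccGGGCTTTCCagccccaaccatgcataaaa
CXCL2 (chr4:74099220-74099292, minus strand): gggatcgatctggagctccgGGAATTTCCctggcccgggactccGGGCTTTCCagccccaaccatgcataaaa
NFKBIA (chr14:35404802-35404930, minus strand): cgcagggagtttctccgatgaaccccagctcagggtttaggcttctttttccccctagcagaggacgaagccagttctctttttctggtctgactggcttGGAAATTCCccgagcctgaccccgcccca
*CXCL1* and *CXCL2* each hold 2 matches, the nearer 45 bases before the start in both, and *CXCL8* holds 1 at 83 bases.

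Of 34 interferon-stimulated genes 15 were called higher than untreated and 1 lower after the combined treatment (median 0.29). After OXA alone 20 were higher and 1 lower (median 0.55), and the combined treatment was higher than OXA alone at 2 and lower at 6. With only the 6 arrays compared 8 were called higher than untreated, and with only the 9 HT29 arrays 10. *ISG15*, a ubiquitin-like modifier, read 14.87, 14.92 and 14.88 untreated, 15.84, 15.84 and 15.92 after the combined treatment and 15.82, 15.95 and 15.87 after OXA alone. The antiviral GTPase *MX1* rose by 1.46. The transcription factor *IRF7* read 13.50, 13.49 and 13.40 untreated, 13.74, 13.95 and 14.01 after OXA alone and 14.65, 14.55 and 14.68 after the combined treatment, so that the 3 groups were separate. The restriction factor *IFITM3* was 0.94 above untreated after OXA alone and 0.20 after the combined treatment, the latter not called.

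Lipid and sugar metabolism differed by gene. Of 31 genes of cholesterol and fatty acid synthesis 14 were lower and 3 higher (median −0.26), and 8 and 2 with only the 6 arrays compared. *FASN*, fatty acid synthase, fell from 13.99, 13.93 and 14.04 to 12.65, 12.79 and 12.98 (−1.18, adjusted p = 1.63e-08), *INSIG1* fell by 1.04 and the mevalonate gene *HMGCS1* by 0.44, and *ACSS2* rose by 1.33. Among 28 genes of glycolysis and the hypoxia response 9 were higher and 3 lower, and 4 and 1 with only the 6 arrays compared. *ADM*, the peptide adrenomedullin, read 10.87, 10.90 and 10.85 untreated, 11.73, 11.67 and 11.85 after OXA alone and 13.47, 13.60 and 13.30 after the combined treatment, a rise of 2.59. *NDRG1* read 10.96, 10.96 and 12.54 untreated, 13.83, 13.67 and 13.53 after the combined treatment and 11.13, 11.05 and 11.11 after OXA alone. Its rise of 2.19 (adjusted p = 0.000154) was not called with only the 6 arrays compared (adjusted p = 0.0699), untreated replicate 3 standing far above the other two. *HK2*, the inducible hexokinase, fell by 1.05 on 1 probe, while the other was well above background on 1 of 3 arrays in each group and was not called (−0.16), and *SLC2A1* (0.08) and *LDHA* (−0.21) were not called, although a second *LDHA* probe was (−0.40, adjusted p = 0.00295).

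Cell death genes were called higher more often than lower. Of 16 BCL2 family genes 7 were higher and 3 lower, led by the pro-apoptotic *BMF* (1.14) and *BAD* (0.90, and 0.48 on a second probe) on the rising side and *BOK* (−1.69) and *BBC3* (−0.68) on the falling side. A second *BMF* probe was not called (0.30, adjusted p = 0.0658), and the mean of both was 0.72. *BCL2* (−0.10) and *MCL1* (0.15) were not called. In the death receptor list 7 of 19 were higher and 1 lower, and 4 and 1 with only the 6 arrays compared. The decoy receptor *TNFRSF10D* read 9.93, 9.79 and 9.97 untreated, 10.23, 10.23 and 10.35 after OXA alone and 11.38, 11.42 and 11.22 after the combined treatment, a rise of 1.44, while *FAS* fell by 0.32, a call lost with only the 9 HT29 arrays (adjusted p = 0.0542).

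Immediate early and feedback genes of ERK signalling were called higher for 13 of 25 and lower for 2 (median 0.48). *DUSP5*, a nuclear ERK phosphatase, read 8.14, 8.07 and 8.31 untreated, 9.64, 9.71 and 9.71 after OXA alone and 10.37, 10.17 and 10.39 after the combined treatment, a rise of 2.14 (adjusted p = 2.23e-09). *DUSP6* rose by 0.71, and *FOS* was not called (0.30, adjusted p = 0.731). Of 28 genes of adhesion, matrix and epithelial-mesenchymal transition 12 were higher and 2 lower. The metalloproteinase inhibitor *TIMP2* read 11.10, 11.05 and 11.27 against 13.62, 13.33 and 13.42, a rise of 2.31, and the laminin chains *LAMB3* and *LAMA3* rose by 1.58 and 1.49. *CDH1*, which encodes E-cadherin, rose by 0.49, and *VIM* (−0.06) was not called.

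Of 14 folate and thymidylate genes 9 were lower and 0 higher (median −0.45). Beside *SLC19A1*, the dUTPase *DUT* fell by 0.96 and *TYMS*, the target of fluoropyrimidines, by 0.43. *TYMS* read 14.92, 14.83 and 14.92 untreated, 14.87, 15.00 and 14.91 after OXA alone and 14.38, 14.52 and 14.48 after the combined treatment, which stood below both. Of 15 platinum and drug transporters 3 were higher (20%) and 2 lower (13.3%), shares close to those of all detected names, and within slide 2 and slide 3 alone 0 were higher and 1 lower on each. The copper importer *SLC31A1* fell by 0.43, with a second probe not called (−0.18), and the exporter *ABCG2* by 1.28, and *SLC31A2* rose by 0.71. Of 13 tubulins 5 were higher and 1 lower, led by *TUBB3*, which read 9.09, 9.13 and 9.36 untreated, 11.53, 11.47 and 11.44 after the combined treatment and 11.41, 11.50 and 11.47 after OXA alone. *TUBB* was not called by its brightest probe (−0.21), but its other 2 probes were called lower, by 1 and 1.1.

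Of the 10 genes of the aryl hydrocarbon receptor list 2 were higher and 3 lower. *CYP1A1*, its best-known target, read 7.19, 7.5 and 7.23 untreated, 7.58, 7.80 and 7.81 after OXA alone and 8.90, 8.43 and 8.49 after the combined treatment. It rose by 1.30 (adjusted p = 1.75e-06), and the receptor's repressor *AHRR* by 0.58, whereas *CYP1B1* fell by 0.59, *UGT1A6* by 0.81 and the receptor gene *AHR* by 0.35. A second *UGT1A6* probe was not called (−0.18, adjusted p = 0.717), and the mean of both was −0.49. Of 17 circadian genes 9 were higher and 3 lower (median 0.34), and 8 were higher than after OXA alone. The output factor *DBP* rose by 1.12, *PER1* by 0.78 and *NR1D1* by 0.42, and *BHLHE41* fell by 1.03. Of 34 genes of intestinal differentiation 4 were higher and 4 lower, with *VIL1* at 1.05 and the adhesion genes *CEACAM1* and *CEACAM6* at −1.39 and −1.05, and a second *CEACAM1* probe at −0.73. *CDX2* was not called (−0.81, adjusted p = 0.348), its untreated arrays reading 8.26, 7.25 and 7.23. Of the 6 leukocyte markers 2 were called higher and 0 lower. *CD68* rose by 0.86, and *PTPRC*, which defines leukocytes, was not called (−0.05), with a mean of 7.01 in untreated cells.

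A feature of the probes went with part of the largest falls. Among the 10 largest falls, 5 names were read by probes that hold a run of alternating G and A, and none of the 10 largest rises was. This was noticed after the values were seen and is given without a test. The 28-base stretches of these 5 probes, each of 60 bases, are printed with the longest run in capitals.
CD86: GAGAGAGAGAGAaaaaagagagatcttg
CASC15: agctgaAGAGAGAGAGAGAGAagagaga
LINC02245: acttcAGAGAGAGAGAGAGAGAGtattg
XLOC_008559: tgcatgtGAGAGAGAGAGAGAaataggt
XLOC_009911: ggagagagaAGAGAGAGAttaattgagg
The *CD86* probe read 11.07, 11.67 and 10.73 untreated and 8.17, 7.86 and 8.01 after the combined treatment, a change of −3.14 (SE 0.31, adjusted p = 9.24e-06). Other probes without such a run changed by −0.07 and −0.06 for *CASC15*, by −0.03 for *LINC02245* and by 0.01, 0.14 and 0.05 for XLOC_009911, with untreated means of 5.87 to 6.36, near the lowest values on the arrays.

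Of the 50391 probes with runs under 8 bases 9.11% were called lower, with a median of −0.01. The share was 12.5% of 176 probes with runs of 8 or 9, 61.1% of 18 with 10 or 11, 100% of 7 with 12 or 13 and 71.4% of 7 with 14 or more, and the medians were −0.08, −1.03, −2.84 and −3.13. After OXA alone the median of the last class was −3.45, and in HTOXAR3 after the combined treatment −2.32. Of the 343 names lower past 2-fold 27 rested on a probe with a run of 8 or more. Without such probes 7127 names were called. The part of the probe sequence in these falls was not tested, and the 5 names are not described further as genes.

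The position of genes along the chromosomes was a further feature, also noticed after the values were seen and given without a test. Distance was measured from a probe to the nearer of the 2 outermost probes of its chromosome on the array. Of 20375 detected names with a position 8.44% lay within 2 Mb of an end. Of the 341 names with a position that were lower past 2-fold 84 did (24.6%), and of the 496 higher past 2-fold 56 did (11.3%). Without probes holding a run, the share of the lower names was 26.8%. After OXA alone it was 31.7%. Of the 125 names past 2-fold in either direction between the combined treatment and OXA alone 9.6% lay there. Of those 125 names 114 were higher and 11 lower, so that this share is not comparable with those of the lower names.

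The genes concerned sit at the ends of several chromosomes. *ANTKMT* and *PIGQ*, with *METRN* (−2.17), *HAGHL* (−2.20) and *METTL26* (−2.23), lie between 0.559 and 0.703 Mb from the end of chromosome 16, *SLC19A1* 1.13 Mb from that of chromosome 21, and *ARFRP1* (−2.90) and *RTEL1* (−2.42) 0.630 and 0.634 Mb from that of chromosome 20. On the rising side *ZDHHC11* and *ZDHHC11B* lie 0.770 and 0.685 Mb from an end of chromosome 5. *TUBB3* lies 0.233 Mb from an end of chromosome 16 and *PDE6G* 1.57 Mb from an end of chromosome 17. Each distance is to the nearer end, so that genes of 1 chromosome may lie at opposite ends. Of the 33 names changed past 4-fold within 2 Mb, 16 were higher and 17 lower. The genes *METRN*, *HAGHL*, *METTL26*, *ARFRP1* and *RTEL1* were chosen after their values were seen.

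**Figure D4:**
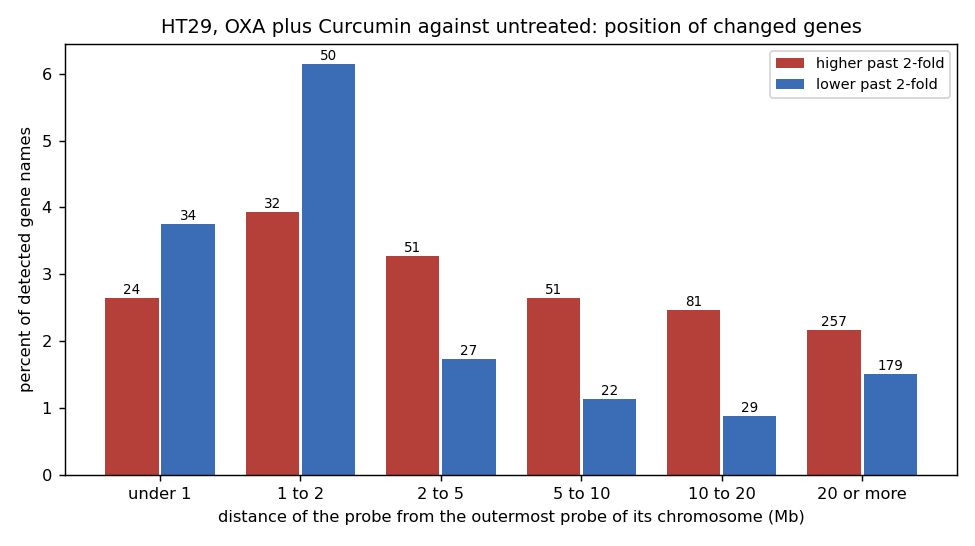
Percent of detected names higher (red) and lower (blue) past 2-fold after OXA plus Curcumin in HT29, by the distance of the probe from the outermost probe of its chromosome in Mb, with the number of names over each bar. Names lower past 2-fold made up 3.75% and 6.14% of the bins under 1 Mb and from 1 to 2 Mb, and 0.884% to 1.73% of the bins farther in.

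In HTOXAR3 the combined treatment, with 30 µM OXA, gave 6746 calls against untreated (18.6%), 9.3% higher and 9.34% lower. The difference of the responses, HTOXAR3 minus HT29, was called for 655 names (1.81%), 236 higher and 419 lower. It compares lines and OXA doses together. Of the heat shock list 12 genes were higher and 4 lower in HTOXAR3, and of the NRF2 list 18 and 1. *HSPA6* rose by 5.57 in HTOXAR3 and 5.28 in HT29, *AKR1C1* by 3.57 and 3.29, and *HMOX1* by 1.2 and 0.91, and none of these 3 differences was called. Of the proteasome list 29 subunits were higher and 1 lower in HTOXAR3.

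The CXC chemokines differed between the lines. *CXCL1* changed by −0.55 in HTOXAR3 against 1.51 in HT29, a difference of −2.06 (adjusted p = 4.29e-05). *CXCL2* changed by −1.05 against 0.90 (−1.95, adjusted p = 4.53e-05), and *CXCL8* by −0.08 against 1.36 (−1.44, adjusted p = 0.00536). *NFKBIA* differed by −0.67 (adjusted p = 0.0208), whereas the differences of *BIRC3* (−0.04) and *ICAM1* (0.24) were not called, their rises in HTOXAR3 being 2.35 and 1.86. Interferon-stimulated genes were called higher for 6 and lower for 6 of 34 in HTOXAR3, against 15 and 1 in HT29, and *ISG15* (−0.76) and *MX1* (−0.70) differed.

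Of the 33 names near chromosome ends changed past 4-fold in HT29, 30 changed in the same direction but less in HTOXAR3. *PDE6G* rose by 1.71 there against 4.50, and *SLC19A1* changed by −1.21 against −3.12. The other 3, *SDCBP2* (4.29 against 3.80), *ZFAND2A* (3.34 against 3.11), an inducible zinc finger gene of the proteotoxic response, and *MAB21L4* (2.30 against 2.20), changed more. Of the 99 names whose response differed past 2-fold between the lines 35.4% lay within 2 Mb of an end. Since the 33 names were chosen for large changes in HT29, smaller changes in another line are a description only.

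**Figure D5:**
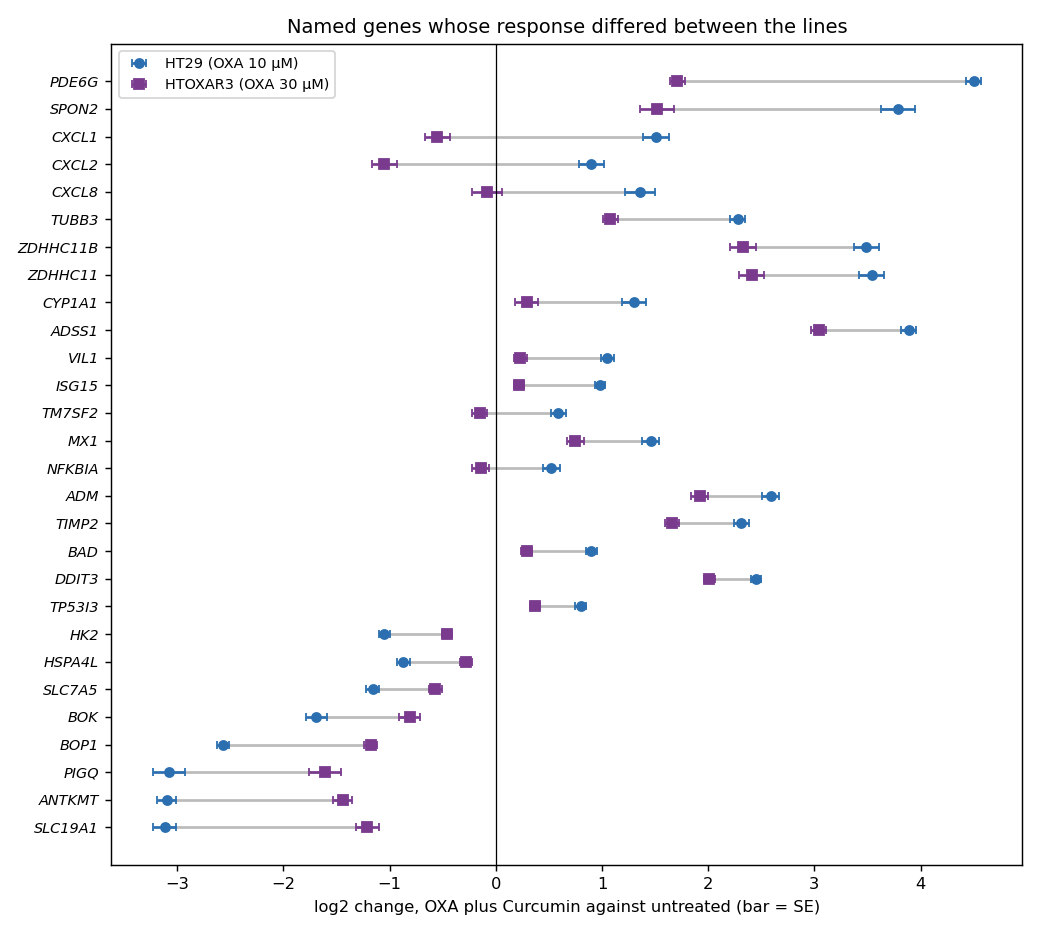
Log2 change after OXA plus Curcumin against untreated (horizontal axis, bars are SE) in HT29 (circles) and HTOXAR3 (squares). Shown are the 28 genes given by the naming rule whose responses differed. *CXCL1*, *CXCL2*, *CXCL8*, *NFKBIA* and *TM7SF2* lie on opposite sides of 0 in the 2 lines, and for 20 genes the HTOXAR3 value is the lower.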

How the data were processed

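RNA of 18 samples, 3 per group, was hybridised to one-colour Agilent arrays, and the authors extracted each array with Feature Extraction 10.7.3.1, as the submitters' processing notes name it. The authors deposited scanner files with the mean and background intensity of each spot, not normalized, and a table of background-corrected, quantile-normalized log2 values, which served as an alternative. Spots flagged as outliers were set missing, background was corrected with normexp and an offset of 50, arrays were quantile-normalized, spots of 1 probe were averaged, and each gene name was represented by its brightest probe, by the mean of all 18 arrays. The offset was chosen because the lowest quantiles of the deposited table match it. limma 3.58.1 in R 4.3.3 was fitted to all 18 arrays with 6 group terms and p-values adjusted over 36203 names. The number of arrays limits the precision. The study calls the replicates biological, and the labels do not name separate cultures, so that p-values measure the spread between these samples.

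Of 36204 names on the array 21111 were matched to RefSeq (GRCh38.p14) through their accession, 1220 through a current symbol and 274 through a former one, and 13599 stayed as the array has them. Positions of probes come from the array annotation on GRCh37, and promoter sequences are from RefSeq on GRCh38.p14. Genes named are the 10 largest rises and 10 largest falls that were called, had a current RefSeq symbol and exceeded background on each of the 6 arrays, the defining genes of each of 29 lists, and the 2 largest called rises and falls of each list. Other list members and genes named were chosen after their values were seen. The gene lists and members were chosen with earlier results of these data known. The limma steps were tested on simulated data. Figures were drawn with matplotlib 3.10.9 in Python 3.11.15. The alternatives changed the offset, the scaling, the probe rule, the filter on dim probes, the arrays in the model, the slide, the replicate block, the adjustment and the fold threshold, and left out each array in turn.

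A few genes that this rule or the lists would name are not reported here.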

Additional observations from a re-analysis of the deposited data

Results flagged for a closer look

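For 28 of the 159 genes given by the naming rule the change after OXA plus Curcumin differed between HTOXAR3 and HT29. The test was the limma test of the difference itself, with Benjamini-Yekutieli adjustment over all names. Genes named in the text for other reasons are not in this count. OXA was given at 30 µM to HTOXAR3 and 10 µM to HT29, so that line and dose cannot be told apart. The values are HTOXAR3 minus HT29 on the log2 scale.

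In 20 genes the change was lower in HTOXAR3. Among the chemokines and NF-κB genes the difference was −2.06 for *CXCL1*, −1.95 for *CXCL2*, −1.44 for *CXCL8* and −0.67 for *NFKBIA*. Among the large rises it was −2.79 for *PDE6G*, −2.27 for *SPON2*, −1.16 for *ZDHHC11B*, −1.12 for *ZDHHC11* and −0.85 for *ADSS1*. The interferon-stimulated genes *ISG15* and *MX1* differed by −0.76 and −0.70, and the tubulin gene *TUBB3* by −1.20. *CYP1A1* differed by −1.01, *VIL1* by −0.82, *TM7SF2* by −0.73, *ADM* by −0.67, *TIMP2* by −0.65, *BAD* by −0.62, *DDIT3* by −0.44 and *TP53I3* by −0.43.

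In 8 genes, of which all had fallen in HT29, the change was higher in HTOXAR3. The difference was 1.91 for *SLC19A1*, 1.66 for *ANTKMT*, 1.47 for *PIGQ*, 1.39 for *BOP1* and 0.89 for *BOK*, and 0.59 each for *SLC7A5*, *HK2* and *HSPA4L*. Within slide 2 and within slide 3 the difference between the lines was called for 1 name and 0 names, against 4044 and 5408 at an unadjusted p below 0.05.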

How the results depend on the processing

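The naming rule gave 159 genes, of which 136 were called. Of these 117 kept the call and its direction at every setting other than the 2-fold threshold and single slides. Of 3175 values over the 159 genes and all settings, 243 were no longer called and 11 newly called. Among values called in the main or the changed setting 0 had the opposite sign, and changes of sign without a call were not counted. Other genes in the text were not followed over the settings. The count against untreated was 841 past 2-fold, 1882 within slide 2 and 1392 within slide 3, and 6386 to 6671 when 1 array was left out. The count against OXA alone was 125 past 2-fold, 558 with only the groups compared, 1354 with only the 9 HT29 arrays, 65 within slide 2 and 65 within slide 3, and 1872 to 2415 with 1 array left out. Of those calls 54.7% were higher, against 91.2% past 2-fold, 73.5% with only the groups compared, 76.9% within slide 3 and 43.1% within slide 2. The count of differences between the lines was 310 with an offset of 0, 345 with Agilent's processed signal scaled to the 75th percentile, 1833 with Benjamini-Hochberg adjustment, 99 past 2-fold, 1 within slide 2 and 0 within slide 3 (5408 at an unadjusted p below 0.05 by limma), and 427 without HTOXAR3 untreated replicate 1, in a range of 427 to 672. With the slide as a block the 3 counts were 7152, 2506 and 658. The processed signal shifted the median of all names to −0.15, and 47.4% of its 7144 calls against untreated were higher, against 51.1%. Deviations of same-numbered arrays correlated at 0.01, 0.02 and 0.12, and those of other pairs at −0.08 to 0.05. With 3 arrays a group these values cannot decide whether the numbers pair the arrays. With the replicate block the counts were 7346, 2638 and 650. Array number and the offset limit what dim genes can show.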

Other observations

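Genes that were not well above background in 1 group have only a bound on their change. By the probe that stood for each name, 118 of the names called higher were not well above background on any untreated array, and 23 of those called lower on none of the combined treatment. Some of these names have another probe that was. The bound sets the mean of the brighter group against the dimmer group's mean of, on each array, the lowest signal well above background or the probe's own value where that was higher. *LOC101928612* was at least 16.1-fold higher. *CERS1*, a ceramide synthase gene, was at least 3.77-fold higher.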
